A study of Homo sapiens with 4 samples.

Results

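The genes described here are 10 parts of the Notch pathway: the receptors NOTCH1, NOTCH2 and NOTCH3, the ligands JAG1, JAG2 and DLL1, and the targets HES1, HEY1, HEY2 and NRARP. They were taken by symbol, after mapping the Ensembl identifiers, from 60721 genes in the count table, and all 10 were found. RNA came from Hs578T, an established line from a human breast carcinoma, in which all cells were transfected with GFP together with 1.6 µM of either a non-targeting RNA (SCR, 2 libraries) or an siRNA against TLN1 (siTLN1, 2 libraries) and were harvested 48 h later. TLN1 encodes talin-1, which couples integrins to actin. The study used 1 cell line and 1 time point, and the labels give no second siRNA, so an effect of the loss of TLN1 and another effect of that RNA cannot be told apart.

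Notch receptors are single-pass membrane proteins that are activated by ligands on a neighbouring cell. Ligand pulling exposes the receptor to ADAM10 and then to gamma-secretase, and the released intracellular domain enters the nucleus, where it joins the DNA-binding protein RBPJ and a Mastermind coactivator. HES and HEY genes, which encode basic helix-loop-helix repressors, and NRARP, which encodes a feedback inhibitor of that complex, are among the best known direct targets. In breast tissue the pathway is known for its part in luminal cell fate, and JAG1 is known for its high expression in basal-type carcinomas.

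Of the 8 members that could be tested, HES1 and HEY2 were lower in siTLN1 than in SCR, and no member was higher. HES1 fell to 72.1% of its SCR mean and HEY2 to 59.2%. In bulk RNA, fewer cells with a transcript and less of it per cell cannot be told apart. JAG1 and NOTCH2, the most abundant ligand and receptor, stood at 78.8% and 75.2% of their SCR means. Both missed the threshold of an adjusted p under 0.05 in the main fit, which used no pairs. In some other fits, that with a replicate block among them, both passed it. NOTCH1, NOTCH3, DLL1 and HEY1 overlapped between the groups. JAG2 and NRARP had too few counts to be tested. Across all 16137 genes tested, 6.07% passed that threshold, 3.77% in the lower direction and 2.3% in the higher, so 2 of 8 members is a larger share, but of a very small number. The median log2 fold change of the 8 tested members was −0.29, against 0.0033 over all tested genes. The members were chosen with earlier results of these data known, so neither comparison is independent support.

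The promoters of HES1 and HEY2 are shown because these are the members that passed the test and because a core of the RBPJ binding sequence, TGGGAA, lies in both. The stretches run 5′ to 3′ on the plus strand of GRCh38.p14, from RefSeq, and stop before the first annotated transcript start of GENCODE 29 in the window. The HES1 stretch is chr3:194135898-194136144 and the HEY2 stretch is chr6:125749382-125749579. The HEY2 stretch lies inside the span of HEY2 in the count table, which begins at 125747664, and so is not upstream of its earliest annotated start. Capitals mark TGGGAA or, on the other strand, TTCCCA.
HES1: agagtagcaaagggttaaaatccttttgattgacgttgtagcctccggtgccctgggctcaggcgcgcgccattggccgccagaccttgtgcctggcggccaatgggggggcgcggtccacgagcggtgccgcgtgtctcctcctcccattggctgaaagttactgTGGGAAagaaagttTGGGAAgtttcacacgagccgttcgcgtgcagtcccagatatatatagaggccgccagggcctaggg
HEY2: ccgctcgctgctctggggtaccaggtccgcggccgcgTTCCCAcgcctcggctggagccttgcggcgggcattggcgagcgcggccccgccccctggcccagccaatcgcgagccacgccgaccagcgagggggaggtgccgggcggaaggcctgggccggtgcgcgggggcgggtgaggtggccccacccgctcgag

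HES1 held 2 copies of TGGGAA on the gene's strand, beginning 84 and 70 bases before its RefSeq start. HEY2 held 1 copy on the opposite strand, within the bases 213 to 208 before its start. The longer form GTGGGAA, which contains the core, was present once in each of the 2 windows. RefSeq windows of 250 bases before the start were at hand for 8 of the 10 members, and in the other 6 (NOTCH1, NOTCH2, NOTCH3, JAG1, JAG2 and NRARP) neither form occurred on either strand. DLL1 and HEY1 had no entry. Of 35116 RefSeq windows of this length, 20.8% held TGGGAA at least once, 2.90% at least 2 times, and 5.43% held GTGGGAA. These are matches of letters only, and binding was not measured. The part of these sites in the values of HES1 and HEY2 was not tested.

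The libraries held 31854322 to 46353297 counts assigned to genes. Values below are CPM, counts relative to the TMM-scaled library size, given for library a and then library b of a group. The letters follow a number that recurs in the count columns of both groups and whose meaning is not given in the sources used here. By the members' values in the authors' deposited log2 CPM, library a of each group matched replicate 1 and library b replicate 2. Replicates scattered more widely than counting alone would give (chi-square over its degrees of freedom 13.7 in SCR and 18.1 in siTLN1). The series calls the libraries of a group biological replicates. The p-values rest on the spread between them, with each gene's estimate drawn toward a trend over all genes. TLN1 itself was at 868 and 874 CPM in SCR and at 51.9 and 44.8 CPM in siTLN1, which is a log2 fold change of −4.17 (SE 0.11; adjusted p 3.89e-13 by edgeR's quasi-likelihood test). The labels state an epithelial origin, and the 8 luminal epithelial markers were mixed: EPCAM had 0 to 6 raw counts per library and CDH1 13 to 40, whereas KRT18 stood at 104 to 131 CPM and KRT8 at 15.1 to 20.7 CPM, and 4 of the 8 were too low to test. The mesenchymal marker VIM stood at 3811 to 3968 CPM. Of 8 mesenchymal markers 2 were lower in siTLN1, CDH2 and CAV1, and of 4 basal markers 1, KRT14. Among leukocyte markers CD3E was at 0 in every library, PTPRC had 12 to 20 raw counts and CD14 24 to 36. The part of these marker changes in the results on Notch genes was not tested.

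**Figure D1:**
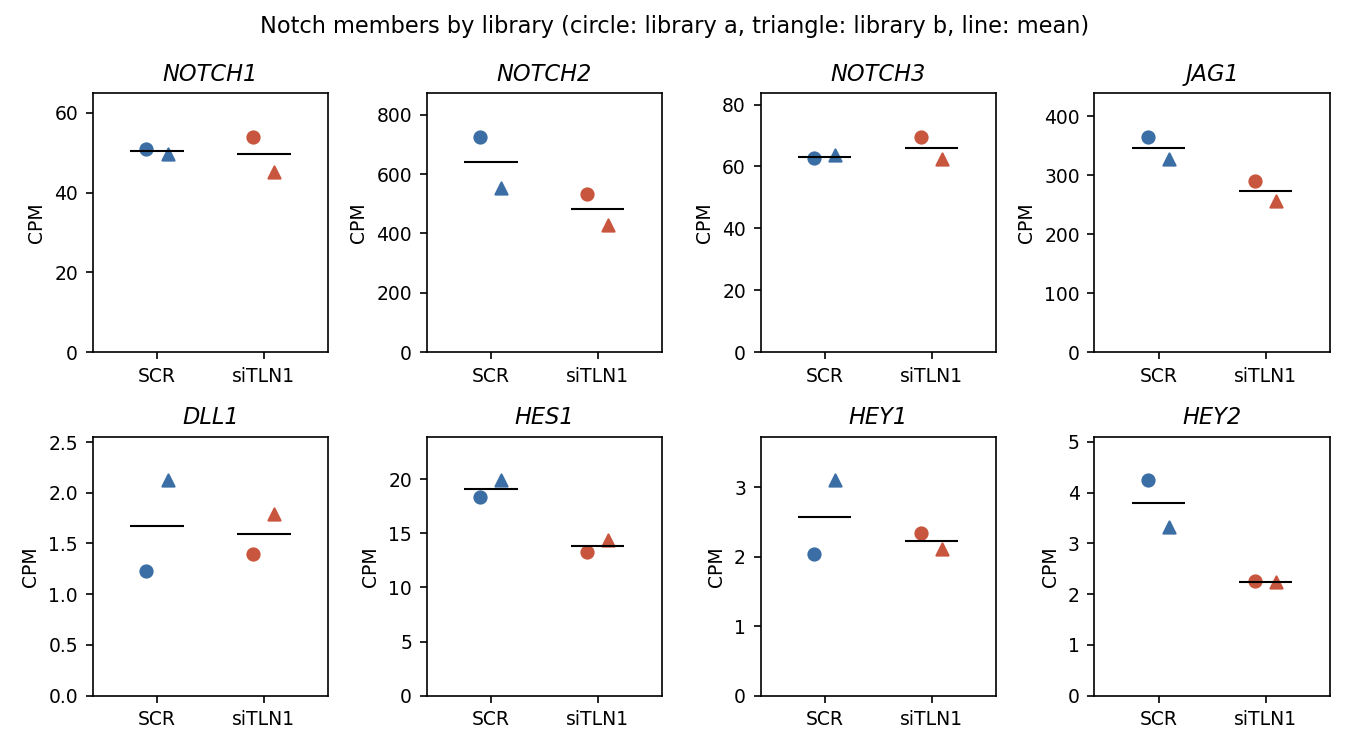
CPM (vertical axis, linear from 0) of the 8 tested members in the 2 SCR and 2 siTLN1 libraries; circles are library a, triangles library b and lines group means. For HES1, HEY2, JAG1 and NOTCH2 both siTLN1 points lie below both SCR points, while NOTCH1, NOTCH3, DLL1 and HEY1 overlap.

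Among the receptors, NOTCH2 was the most abundant. Per kilobase of exon, which allows genes to be compared, its level was 32.1 ± 6.11 CPM per kb in SCR (SD, n = 2), higher than in 92.1% of tested genes, against 6.72 ± 0.0493 for NOTCH3 and 4.73 ± 0.0741 for NOTCH1 on the same scale. The 3 receptors did not overlap with each other in any library. NOTCH4, the fourth mammalian receptor and no member here, was at 0.598 and 1.23 CPM in SCR and at 0.440 and 0.553 CPM in siTLN1. Its log2 fold change of −0.88 rested on 16 to 43 raw counts per library and did not pass (adjusted p 0.207, edgeR). Of the summed level per kilobase of the 4 receptors, NOTCH2 made up 76.0% and 70.6% in SCR, against 68.1% and 66.4% in siTLN1.

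NOTCH2 (ENSG00000134250.20; GRCh38, chromosome 1, 119911553 to 120100779, minus strand) was at 726 and 554 CPM in SCR and at 533 and 430 CPM in siTLN1. Both siTLN1 libraries lay below both SCR libraries, but the lower SCR library and the higher siTLN1 library were close. Its log2 fold change was −0.41 (SE 0.14; 95% interval −0.71 to −0.11), and the adjusted p of 0.108 (unadjusted 0.0111) missed the threshold. The call depended on the settings. By edgeR the adjusted p was 0.0268 with scaling by total counts only and 0.0089 after each library's trend with gene length was removed. With a replicate block in limma-trend it was 5.88e-07, but the replicate numbers were not taken as pairs. Without SCR library a the log2 fold change was −0.20, and without siTLN1 library b it was −0.26, whereas without SCR library b (−0.59, adjusted p 0.00178) and without siTLN1 library a (−0.58, adjusted p 0.0437) the gene passed. NOTCH2 has near-identical partial copies, the NOTCH2NL genes, which had at most 20 counts each in any library; reads common to both may be missing from the counts, which makes its level uncertain to that extent.

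NOTCH1 (ENSG00000148400.12; chromosome 9, 136494433 to 136546048, minus strand) was at 50.9 and 49.8 CPM in SCR and at 54.1 and 45.1 CPM in siTLN1. The siTLN1 values enclosed the SCR values, and the log2 fold change of −0.024 had a 95% interval of −0.25 to 0.20 (adjusted p 0.935, edgeR). NOTCH3 (ENSG00000074181.9; chromosome 19, 15159038 to 15200995, minus strand), a receptor best known from vascular smooth muscle, was at 62.9 and 63.5 CPM in SCR and at 69.6 and 62.4 CPM in siTLN1. Its groups overlapped too, with a log2 fold change of 0.062 and an interval of −0.14 to 0.27 (adjusted p 0.795, edgeR). Both intervals exclude the −0.41 estimated for NOTCH2, but the difference between receptors was not tested.

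Among the ligands nearly all transcript was JAG1. Its level of 37.3 ± 2.89 CPM per kb in SCR (SD, n = 2) was higher than in 93.4% of tested genes and overlapped with that of NOTCH2, so the order of these 2 most abundant members is not resolved. JAG1 made up 96.7% to 98.2% of the summed level per kilobase of JAG1, JAG2, DLL1, DLL3 and DLL4 in every library. DLL4, the ligand known from endothelium, had 0 to 3 raw counts per library. DLL3 was at 0.948 to 1.17 CPM and DLK2, a non-canonical ligand, at 2.04 to 3.04 CPM, both with overlapping groups.

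JAG1 (ENSG00000101384.12; chromosome 20, 10637684 to 10673999, minus strand) was at 365 and 327 CPM in SCR and at 290 and 256 CPM in siTLN1. Both siTLN1 libraries were below both SCR libraries. The log2 fold change was −0.34 (SE 0.10; 95% interval −0.56 to −0.13), and the adjusted p of 0.0526 (unadjusted 0.00328) lay just above the threshold in edgeR's quasi-likelihood test. It lay below it with DESeq2 (adjusted p 0.0339), with total counts only (0.0272), with the length trend removed (0.0126) and with a filter at a mean of 10 counts (0.048), at nearly the same fold change, and above it with RLE scaling (0.0542), limma-voom (0.0515), limma-trend (0.0592) and no filter on low counts (0.105). Of the fits that left out 1 library, JAG1 passed only without SCR library b (−0.42, adjusted p 0.0349); the adjusted p was 0.257 without SCR library a (−0.26), 0.0959 without siTLN1 library a (−0.44) and 0.325 without siTLN1 library b (−0.25). With a replicate block in limma-trend the adjusted p of JAG1 was 6.88e-06, but the replicate numbers were not taken as pairs. Opposite-strand exons share 3.29% of the exon bases of JAG1, but the gene there had at most 3 counts in any library.

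DLL1 (ENSG00000198719.9; chromosome 6, 170282206 to 170306565, minus strand), a Delta-type ligand, was at 1.23 and 2.12 CPM in SCR and at 1.40 and 1.79 CPM in siTLN1. Library b was higher than library a in each group, and the siTLN1 values lay between those of SCR. Its log2 fold change was −0.069 with a wide 95% interval of −0.64 to 0.51 (adjusted p 0.926, edgeR), so a moderate change in either direction was not detectable at this depth. DLL1 shares 9.69% of its exon bases with FAM120B on the opposite strand. The counting used no strand option, FAM120B had 1108 to 1554 counts against 39 to 84 for DLL1, and the level of DLL1 is therefore uncertain. JAG2 (ENSG00000184916.9; chromosome 14, 105140982 to 105168824, minus strand) was barely detected: SCR gave 0 and 1 raw counts, siTLN1 1 and 4. A count of 0 allows up to 0.0944 CPM in SCR library a, counting error only, and no fold change is given.

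**Figure D2:**
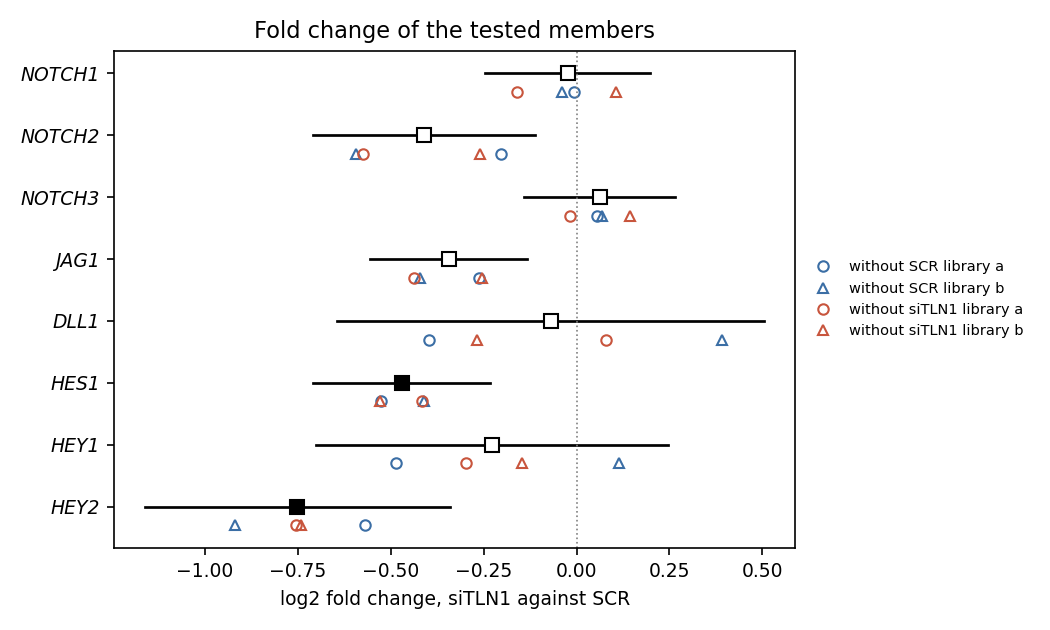
Log2 fold change of siTLN1 against SCR (horizontal axis) for the 8 tested members: squares are fits of all 4 libraries with lines for 95% intervals, filled where the adjusted p is under 0.05, and the small symbols below each are fits that left out 1 library. All symbols of HES1, HEY2, JAG1 and NOTCH2 lie left of 0, while those of NOTCH1, NOTCH3, DLL1 and HEY1 lie on both sides.

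Among the targets HES1 was the most abundant, at 9.30 ± 0.534 CPM per kb in SCR (SD, n = 2). It made up 79.5% to 82.1% of the summed level per kilobase of the 4 targets in every library. HEY2 followed at 1.41 ± 0.241, HEY1 at 0.798 ± 0.232 and NRARP at 0.0792 ± 0.0110 CPM per kb in SCR. Over all 4 libraries HEY2 and HEY1 overlapped, as did HES1 and the receptor NOTCH3.

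HES1 (ENSG00000114315.4; chromosome 3, 194136148 to 194138732, plus strand), the repressor most often read as a sign of Notch signalling, was at 18.4 and 19.9 CPM in SCR and at 13.2 and 14.4 CPM in siTLN1. The siTLN1 libraries were close to each other, and both lay below both SCR libraries. The log2 fold change was −0.47 (SE 0.11; 95% interval −0.71 to −0.23; adjusted p 0.0198 by edgeR's quasi-likelihood test). HES1 passed in every fit of all 4 libraries without a replicate block, with adjusted p from 0.00847 to 0.0478. Fits that left out 1 library gave log2 fold changes from −0.53 to −0.41 and lost the call without SCR library b (adjusted p 0.0754) or siTLN1 library a (0.221). None of its exon bases is shared with another gene.

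HEY2 (ENSG00000135547.9; chromosome 6, 125747664 to 125761269, plus strand), a repressor known for its role in heart and vessel development, was at 4.25 and 3.33 CPM in SCR and at 2.25 and 2.23 CPM in siTLN1. Its raw counts were 135 and 116 in SCR against 82 and 105 in siTLN1, so it rests on far fewer reads than HES1. Both siTLN1 libraries were alike and below both SCR libraries, which were further apart. The log2 fold change of −0.75 (SE 0.19; 95% interval −1.16 to −0.34) had an adjusted p of 0.0283 in edgeR's quasi-likelihood test. The call was lost with DESeq2 (adjusted p 0.0847) and with no filter on low counts (0.0526). It was also lost without SCR library a (−0.57, adjusted p 0.174), siTLN1 library a (−0.76, 0.143) or siTLN1 library b (−0.74, 0.090), while the direction held in all of these.

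HEY1 (ENSG00000164683.17; chromosome 8, 79764010 to 79767857, minus strand), the paralog of HEY2, was at 2.04 and 3.10 CPM in SCR and at 2.34 and 2.11 CPM in siTLN1. The 2 groups overlapped, since SCR library a was the lowest of the 4 libraries and SCR library b the highest. The log2 fold change was −0.23 with a 95% interval of −0.70 to 0.25 (adjusted p 0.643, edgeR), and it was 0.11 without SCR library b. The interval contains the estimate for HES1 and excludes that for HEY2, but the difference between genes was not tested. NRARP (ENSG00000198435.4; chromosome 9, 137299631 to 137302271, minus strand) was also barely detected: SCR gave 6 and 8 raw counts, siTLN1 9 and 5. These values overlap, and the gene was too low to test. JAG2 and NRARP are also the 2 members with no entry in the authors' deposited log2 CPM table, which holds the same 16137 genes that were tested here.

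**Figure D3:**
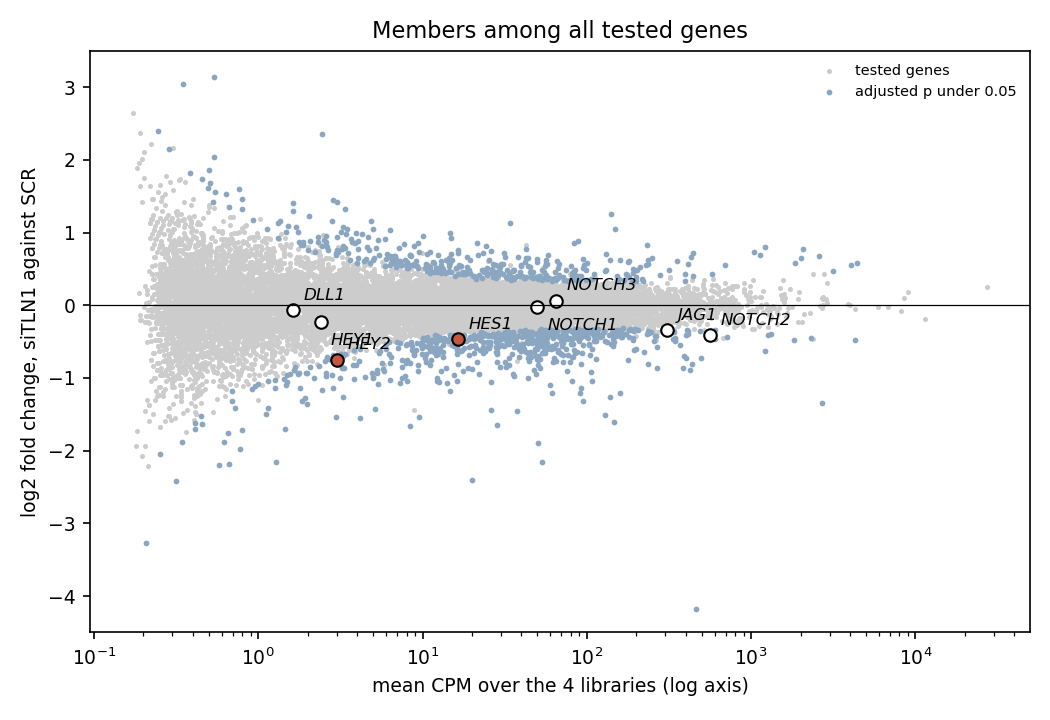
Log2 fold change of siTLN1 against SCR (vertical axis) against the mean CPM over the 4 libraries (log axis) for all 16137 tested genes in grey, with genes at an adjusted p under 0.05 in blue and the 8 tested members as large circles, filled where they passed. HEY2 and HES1 lie among the blue points below 0. JAG1 and NOTCH2, open circles, lie below 0 toward the right, with more abundant genes beyond them.

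In 4 of 8 tested members both siTLN1 libraries lay below both SCR libraries, and in 0 both lay above. Over all tested genes 24.6% lay below in this way and 23.9% above. The 4 members were 1 receptor, 1 ligand and 2 targets. These 4 are also the members that any setting called. Total counts only called all 4 (7.76% of all genes were called in that fit), as did removal of the length trend (8.68%). A filter at a mean of 10 counts called HES1, HEY2 and JAG1 (6.25%), DESeq2 called HES1 and JAG1 (5.2%), and without a filter on low counts only HES1 was called (2.03%).

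A 7-base word, GACAACA, was examined in the members because earlier results of these data had tied its presence in 3′ UTRs to lower fold changes. Among protein-coding genes tested, the median log2 fold change was −0.099 for 845 genes with 1 copy in the 3′ UTR, −0.080 for 96 genes with 2 or more, −0.024 for 1872 genes with it in the coding sequence only and 0.019 for 10050 genes with it in neither, on 1 GENCODE 29 transcript per gene. The share of genes called lower was 16.6%, 18.8%, 6.2% and 2.89% in the same order. Because the word was picked from these same libraries, these class values restate that choice and are no independent support. The classes take no account of 3′ UTR length. NOTCH2 was the only member with the word in its 3′ UTR, at bases 2436 and 2461 of 3753, and it held 2 more copies in its coding sequence. The 3′ UTR sites are printed because NOTCH2 alone among the members has the word there. Capitals mark the word.
NOTCH2 site 1: ctgtcattacaGACAACAggtttcagtga
NOTCH2 site 2: gtgatgaggagGACAACActgcctttcaa

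JAG1 and NOTCH1 held 2 copies each in the coding sequence. HES1, HEY2, HEY1, NOTCH3, DLL1, JAG2 and NRARP held none in the coding sequence or the 3′ UTR of any annotated coding transcript. NOTCH1 carries the word as JAG1 does, at a log2 fold change of −0.024. The part of the word in the values of any member, HES1 and HEY2 included, was not tested.

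Beyond the members, 75 further pathway genes were read out of the same fit, chosen by role. Of the 68 tested, 3 were higher (LFNG, SOX9 and TLE1) and 1 was lower (NFKB2), which is 4 of 68 against 6.07% of all tested genes. The median log2 fold change of these 68 was 0.014. None of the 9 processing proteases, 9 nuclear complex genes and 17 ubiquitin and endocytosis genes passed.

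LFNG (Lunatic fringe), a glycosyltransferase that extends sugars on Notch receptors and alters which ligands they answer to, had the largest change of the 68. It was at 1.20 and 2.24 CPM in SCR and at 3.65 and 4.09 CPM in siTLN1. Its raw counts were 38 and 78 in SCR against 133 and 192 in siTLN1, so it rests on few reads. Both siTLN1 libraries lay above both SCR libraries. With a log2 fold change of 1.16 (SE 0.24; adjusted p 0.00943 by edgeR's quasi-likelihood test), it passed in all fits, from 0.79 without SCR library a to 1.70 without SCR library b. The related MFNG and RFNG, at 0.549 to 0.786 and 17.9 to 20.8 CPM, overlapped between groups.

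TLE1, a Groucho-type corepressor that HES proteins recruit, was at 19.8 and 20.4 CPM in SCR and at 25.6 and 26.5 CPM in siTLN1. Its log2 fold change of 0.38 passed (adjusted p 0.0401, edgeR), but not with DESeq2 (0.0579), with no filter (0.0682) or in any fit that left out 1 library. SOX9, a transcription factor listed as a target, was at 18.1 and 20.3 CPM in SCR and at 27.1 and 26.4 CPM in siTLN1, a log2 fold change of 0.48 (adjusted p 0.0131, edgeR). NFKB2, another listed target and a subunit of NF-kappaB, was at 59.0 and 65.8 CPM in SCR and at 44.3 and 47.3 CPM in siTLN1, a log2 fold change of −0.45 (adjusted p 0.0123, edgeR). The calls of SOX9 and NFKB2 were lost without siTLN1 library a (adjusted p 0.125 and 0.178), that of SOX9 also without SCR library a (0.0559) and that of NFKB2 without SCR library b (0.0586). The listed targets that passed thus went in both directions, whereas HES1 and HEY2 were both lower. MYC, CCND1 and CDKN1A, targets shared with many other pathways, had log2 fold changes of 0.0053, 0.23 and −0.090 and did not pass.

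Of the next 6 genes by p-value none passed, and 5 are given as log2 fold changes with their adjusted p from edgeR. NUMB, an inhibitor of Notch receptors, was at −0.31 (0.0672), and NEURL1B, a ligase that acts on ligands, at −0.43 (0.0701). EPN1, which takes part in ligand endocytosis, was at −0.36 (0.0827), and FBXW7, the ligase subunit that marks the intracellular domain for degradation, at −0.31 (0.144). DTX1 was at 0.91 (0.152) where its mean was 0.463 CPM under SCR and 0.891 CPM under siTLN1. RBPJ, the DNA-binding partner of the receptors, was at 114 and 106 CPM in SCR and at 130 and 122 CPM in siTLN1, a log2 fold change of 0.20 that did not pass (adjusted p 0.235, edgeR). Of the 68 tested pathway genes 24 lay above SCR without overlap and 12 below, against 23.9% above and 24.6% below over all tested genes. Of the 11 tested targets outside the members 6 lay above and 2 below. Of the 9 nuclear complex genes 4 lay above and 0 below, and of the 9 processing proteases 4 and 1. Of the 17 ubiquitin and endocytosis genes 4 lay above and 6 below, of the 13 corepressors 4 and 2, and of the 6 glycosylation genes 2 and 0. The other HES and HEY genes were low. HES4 was at 2.42 and 2.61 CPM in SCR and at 2.09 and 2.17 CPM in siTLN1. HES6 was at 2.39 and 2.87 CPM in SCR and at 3.43 and 3.55 CPM in siTLN1. Their log2 fold changes of −0.24 and 0.41 did not pass (adjusted p 0.566 and 0.236, edgeR). HES2, HES5 and HES7 had at most 7 raw counts in any library. HEYL had 0 in all 4, which allows up to 0.0638 to 0.0944 CPM per library.

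**Figure D4:**
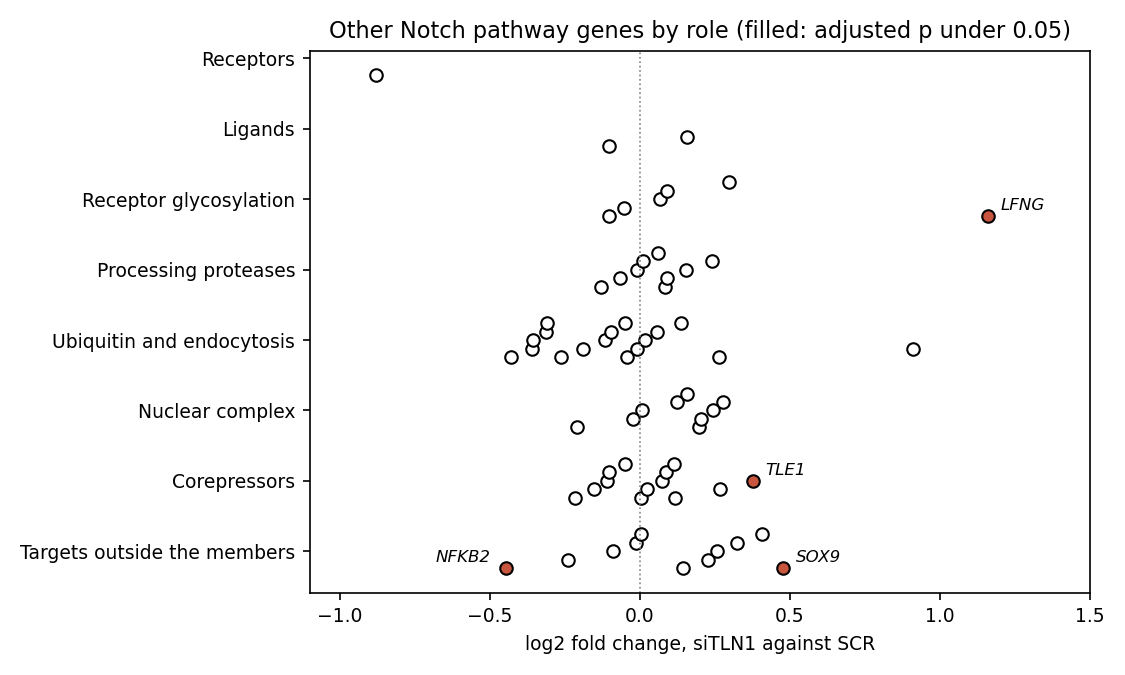
Log2 fold change of siTLN1 against SCR (horizontal axis) for the 68 tested pathway genes outside the members, in lines by role; filled points have an adjusted p under 0.05, and the vertical spread within a line carries no value. LFNG at 1.16 lies farthest from 0, and TLE1, SOX9 and NFKB2 are the other filled points.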

How the data were processed

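Polyadenylated RNA was sequenced as stranded libraries, per the labels' protocols. The authors deposited raw counts per gene from featureCounts (Subread 2.0.0) in paired mode on GENCODE 33, with no strand or multi-mapping setting, per the file headers; alignment with STAR 2.7.9a to GRCh38 is named in the submitters' processing notes. Gene length in exon bases is another column of that deposited count table. The authors also deposited log2 CPM values for 16137 genes; edgeR 3.34.1 is named in the submitters' processing notes, and within groups 100% of these values equalled the TMM-scaled log2 CPM computed here to 6 decimals.

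Count columns were mapped by the group they name, and 0 columns were left unmapped. Their match to replicate numbers was read from the values and was not used in the fits of counts. Of 60721 genes, 16137 passed filterByExpr (minimum count 10, minimum total 15). edgeR 4.0.16 (R 4.3.3) was used with TMM, estimateDisp, glmQLFit (robust) and glmQLFTest, with Benjamini-Hochberg adjusted p-values over all genes tested. Standard errors and 95% intervals follow from its F statistic. With 2 libraries per group an exact permutation test cannot go below 0.333. The tested genes held at least 99.9% of each library's counts. Symbols were found for 60357 genes.

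Named genes are TLN1, the 10 members, pathway genes past the threshold or, up to 10, next by p, and the other receptors, ligands, HES and HEY genes by level; MFNG, RFNG, RBPJ, MYC, CCND1 and CDKN1A were added after their values were seen. A few listed genes are not reported here. Members and lists were chosen with earlier results of these data known. Alternatives were RLE scaling, total counts only, 2 other filters, DESeq2 1.42.0, limma-voom and limma-trend (limma 3.58.1), removal of the length trend (loess span 0.3), each library left out, and a replicate block. Procedures were tested on simulated data. Python 3.11.15 with pandas 2.3.3 was used for sequences and matplotlib 3.10.9 for figures.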

Additional observations from a re-analysis of the deposited data

How the results depend on the processing

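The 2 members called became 4 with total counts only and 4 with the length trend removed (HES1, HEY2, JAG1 and NOTCH2 each time) and 1 with no filter on low counts (HES1). Fits that left out 1 library called from 1 to 3 members, from 1 to 7 pathway genes (4 with all libraries) and from 347 to 1116 of all genes (980 with all libraries), with 347 genes (2.15%) and 1 pathway gene without siTLN1 library a, where NOTCH2 was the 1 member called. They leave an arm with 1 library, which is assumed to vary like the others, and the cause was not tested. The log2 fold change ran from −0.16 to 0.11 for NOTCH1 (above 0 without siTLN1 library b), from −0.018 to 0.14 for NOTCH3 (below 0 without siTLN1 library a), from −0.40 to 0.39 for DLL1 (above 0 without SCR library b and, at 0.080, without siTLN1 library a) and from −0.49 to 0.11 for HEY1 (above 0 without SCR library b). With all 4 libraries and no block, 0 of 64 values of members changed direction, 2 lost a call and 6 gained one.

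The labels' replicate numbers correlated across groups at 0.19 over all genes and 0.54 at 5 CPM or more, and 2 pairs cannot show pairing, so they were not used as pairs. With the replicate block, limma-trend on the deposited values called 3650 genes (22.6% of those tested, 52.9% of them lower), 4 members (HES1, HEY2, JAG1 and NOTCH2) and 19 pathway genes (13 higher, 6 lower). Low counts limit DLL1, HEY1 and HEY2 among the tested members, and JAG2 and NRARP could not be tested with the filter. Without it they were tested, at adjusted p 0.722 and 0.834 by edgeR.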
